A study of Mus musculus with 6 samples.

Results

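A set of 10 genes with roles in the lining of blood vessels was followed in LT-HSC, the long-term repopulating stem cells of the blood, isolated from mouse bone marrow. They are Emcn, Sox18, Egfl7, Stab1, Cdh5, Kdr, Tie1, Pecam1, Robo4 and Esam (rows EMCN, SOX18, EGFL7, STAB1, CDH5, KDR, TIE1, PECAM1, ROBO4 and ESAM1 of the table), 10 of the 28888 genes measured. The set was put together because Emcn and Sox18 were higher 2 days after sex steroid ablation (SSA) than after a sham procedure. The difference between SSA and sham in these 10 genes is therefore a description, with no test. Esam was found under its older name, and the other members under their own.

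The first group was 3 SSA arrays, each of LT-HSC from male mice 2 months old, taken 2 days after ablation of sex steroids. The controls were 3 sham arrays of LT-HSC from male mice of the same age, 2 days after the sham procedure. The labels give the strain as C56 Bl/6 in both groups and do not say that replicates came from separate animals, so the spread between arrays may be technical. Total RNA was labelled with biotin and read on the Illumina MouseWG-6 BeadChip, on which many beads with one probe report each transcript.

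Endothelium and blood arise from common precursors in the embryo, and adult HSC keep part of the vascular programme. In marrow the stem cells lie against sinusoids, thin-walled vessels whose endothelium carries many of the same surface proteins. The VEGF receptor Kdr and the receptor kinase Tie1, a partner of the angiopoietin receptor Tek, carry growth signals. SoxF and ETS transcription factors drive vascular genes, and junction proteins (Cdh5, Pecam1, Esam) hold neighbouring cells together. Robo4 and Esam are also used as surface markers of stem cells, and Emcn, a sialomucin of capillary and venous endothelium, is found on HSC too.

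Promoter sequences from RefSeq (build GRCm38.p6, 250 bases before to 50 bases after a start site, written 5′ to 3′ on the gene's strand) were on hand for 6 of the members, and Sox18, Cdh5, Pecam1 and Esam had none. Those shown belong to Emcn, to Robo4, whose array pattern was closest to that of Emcn, and to Egfl7, which held most matches. The capitals mark the letters CAGGAAG, the form of the ETS motif searched, or its reverse complement CTTCCTG. The Emcn window lies on the plus strand at chr3:137340828-137341127, the Robo4 window on the plus strand at chr9:37401722-37402021, and the first of 3 Egfl7 windows on the plus strand at chr2:26580833-26581132.
Emcn: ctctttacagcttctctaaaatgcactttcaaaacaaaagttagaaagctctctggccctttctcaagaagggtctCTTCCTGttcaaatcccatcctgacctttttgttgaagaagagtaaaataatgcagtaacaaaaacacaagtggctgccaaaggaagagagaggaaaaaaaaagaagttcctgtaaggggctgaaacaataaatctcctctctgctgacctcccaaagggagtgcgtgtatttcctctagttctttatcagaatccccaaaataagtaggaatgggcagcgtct
Robo4: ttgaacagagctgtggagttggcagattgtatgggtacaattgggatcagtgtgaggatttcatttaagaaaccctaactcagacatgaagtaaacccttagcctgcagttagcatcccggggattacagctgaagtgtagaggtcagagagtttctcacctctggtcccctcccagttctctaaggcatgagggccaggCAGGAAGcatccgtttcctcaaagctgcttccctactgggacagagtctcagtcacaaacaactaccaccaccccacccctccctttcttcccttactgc
Egfl7: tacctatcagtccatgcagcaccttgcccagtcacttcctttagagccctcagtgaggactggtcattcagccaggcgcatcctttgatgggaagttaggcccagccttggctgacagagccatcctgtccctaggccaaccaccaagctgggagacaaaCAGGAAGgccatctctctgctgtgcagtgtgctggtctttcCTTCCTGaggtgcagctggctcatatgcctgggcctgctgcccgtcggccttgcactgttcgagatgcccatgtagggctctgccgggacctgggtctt
CAGGAAG was present in a window of 4 of the 6 members, Emcn, Egfl7, Stab1 and Robo4. By window, of which these members had 8, it was absent from the third of Egfl7 and from those of Kdr and Tie1. Across the genome it was in 13.3% of 32851 promoter windows of the same length. It overlapped none of the other motifs searched on both strands. Of these, ACAAAG, a SOX motif, was in the third Egfl7 window and in 18.7% of all windows. AGATAA, a motif of GATA factors, was in no member window and in 11.2% of all windows. TATAAA, the letters of the TATA box, was in no member window and in 13.6% of all windows. The Emcn window held 41.0% G and C bases, that of Robo4 50.3%, and the median over all windows was 52.7%. A match is a description of these letters and not a binding site.

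Egfl7, which encodes a secreted EGF-like protein of vessels, also contains the gene of miR-126a, a microRNA known from endothelium and from quiescent HSC. Its mature form, from RefSeq at chr2:26591402-26591423 on the plus strand (GRCm38.p6), is shown because it lies within Egfl7, with its seed (bases 2 to 8) in capitals.
mmu-miR-126a-3p: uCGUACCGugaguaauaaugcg
The microRNA itself was not measured here.

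The arrays were of similar quality, with a raw median signal of 132.3 to 145.3, a median of 44 beads per row and 35.8% to 37.7% of rows detected at a detection p under 0.05. Correlations between arrays of normalised log2 intensity ran from 0.955 to 0.988. On the first principal component, with 45.8% of the variance, sham 1, at -17.0, lay among the SSA arrays, which lay at -24.0, -9.87 and -0.30, and sham 2 lay farthest out at 41.5. HSC genes were present: Kit and Ly6a were detected on all 6 arrays. Procr, a surface marker of LT-HSC, was detected on none.

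Detection divided the 10 genes. Emcn, Sox18, Tie1, Pecam1 and Esam were detected on all 6 arrays, Egfl7 on 3 SSA and 2 sham arrays, and Stab1 on 2 SSA arrays and 1 sham array. These 7 passed the filter of detection on at least 3 arrays. Cdh5, Kdr and Robo4 were detected on none and did not pass. For Robo4, Egfl7 and Stab1 the detection score and the signal did not go together: the Robo4 signal was 356.7 to 578.5, against a background mean of 126.1 to 137.7 and a background SD of 7.90 to 9.30. How such rows combine probes is not given in the sources used here. The standard error of the beads of one array was 2.4% to 6.3% of the signal over all members and arrays, with 25 to 57 beads behind each value.

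Emcn, the sialomucin endomucin, had raw intensities of 775.4, 805.8 and 860.3 on SSA arrays 1 to 3 and of 680.6, 453.8 and 753.3 on sham arrays 1 to 3. Every SSA array was above every sham array, and sham 2 was lowest. After normalisation the log2 intensity was 9.50, 9.29 and 9.68 on the SSA arrays, against 9.12, 8.67 and 8.93 on the sham arrays, or 9.49 ± 0.20 and 8.90 ± 0.22 (SD, n = 3 each). SSA minus sham was 0.59 on the log2 scale, a 1.50-fold higher signal. The bead standard error was at most 4.1% of the signal, while the raw signal varied among the sham arrays with a coefficient of variation of 24.8% and among the SSA arrays of 5.3%. In sorted populations a change in the number of cells that hold a transcript and a change in its amount per cell cannot be told apart, here and below.

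Sox18, a SoxF transcription factor of vascular and lymphatic endothelium, had raw intensities of 252.5, 273.2 and 268.5 on the SSA arrays, against 225.7, 185.2 and 199.9 on the sham arrays. Here too the SSA arrays lay wholly above the sham arrays. Normalised log2 intensity was 7.19, 7.13 and 7.40 on the SSA arrays, against 6.73, 6.51 and 5.99 on the sham arrays, so that the sham arrays spread more (SD 0.38) than the SSA arrays (SD 0.14; n = 3 each). The difference was 0.83 on the log2 scale, or 1.78-fold. Its size depended on the background correction of this dim signal. The difference was 0.14 with limma's neqc background, which took a far larger background SD, and 0.40 with no background correction. It was 0.61 without sham 3, the lowest array after normalisation.

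The other SoxF genes gave no such signal. Sox17, which is needed by fetal HSC, was detected on no array, and Sox7 on 1 SSA array and 1 sham array, so neither was tested.

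**Figure D1:**
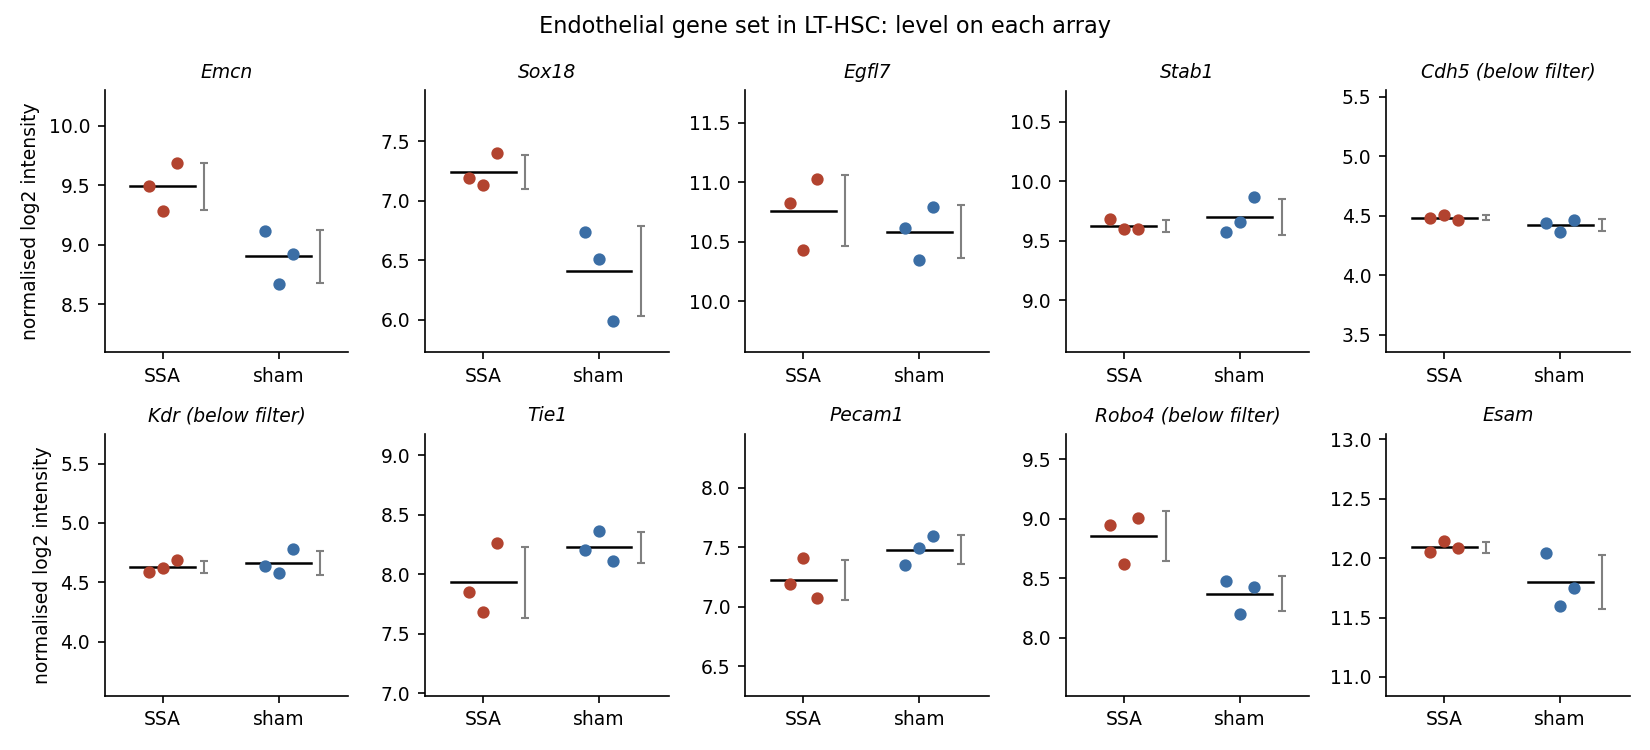
Normalised log2 intensity (vertical axis) of the 10 genes on the 3 SSA arrays (red, left) and the 3 sham arrays (blue, right) of each panel; black lines are means, grey bars are ± 1 SD, and every panel spans the same height. Emcn, Sox18, Robo4 and Esam have SSA arrays wholly above the sham arrays, as does Cdh5 at background (Robo4 and Esam overlap with a median shift per array), while Egfl7, Stab1, Tie1 and Pecam1 overlap.

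Robo4, a receptor that anchors HSC in their niche, had raw intensities of 565.7, 547.5 and 578.5 on the SSA arrays, against 480.9, 356.7 and 569.4 on the sham arrays. The raw values overlapped, since sham 3 lay above SSA 1 and SSA 2. After normalisation they did not, at 8.94, 8.62 and 9.01 on the SSA arrays, against 8.48, 8.20 and 8.43 on the sham arrays, but with a median shift per array in place of quantile normalisation they overlapped again (0.39). The difference was 0.49 on the log2 scale, a 1.40-fold higher signal, in a gene that the detection score called on no array. Robo4 followed Emcn closely, with a Pearson correlation of 0.98 over the 6 arrays and of 0.93 after the mean of each group had been removed. These 6 points share the normalisation of the arrays and the difference for which Emcn was chosen.

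Esam, a junction protein that marks LT-HSC, was measured at raw intensities of 3876.5, 4960.4 and 4252.5 on the SSA arrays, against 4278.6, 2742.3 and 4383.5 on the sham arrays. The raw groups overlapped, and sham 2 stood far below the other 5 arrays. Normalised values were 12.05, 12.14 and 12.08 on the SSA arrays, against 12.04, 11.60 and 11.75 on the sham arrays. The groups then parted by a narrow margin, since sham 1 lay just under SSA 1, and the difference was 0.30 on the log2 scale, or 0.19 without sham 2. The groups overlapped, at a difference of 0.24, when arrays were aligned by a median shift. In the mouse genome Robo4 and Esam lie close together, with 2 protein-coding genes between them.

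**Figure D2:**
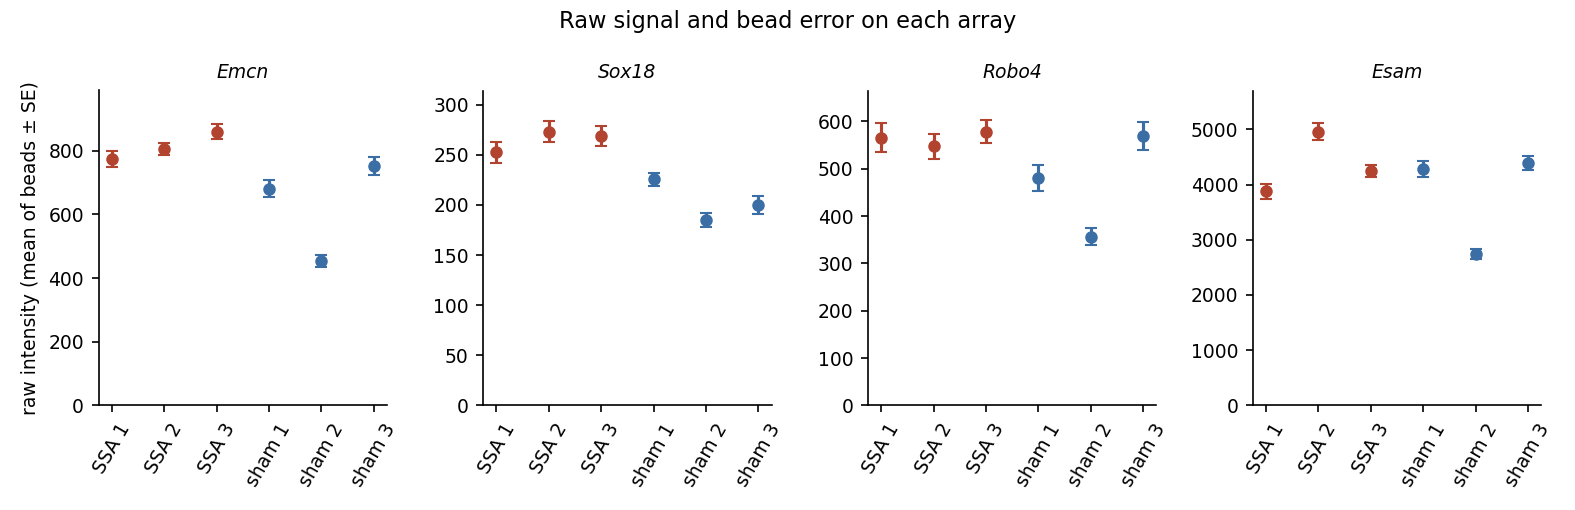
Raw intensity (vertical axis, linear, from 0) of Emcn, Sox18, Robo4 and Esam on each array, SSA in red and sham in blue; bars are the standard error of the beads within the array. Emcn and Sox18 do not overlap between groups in raw signal, Robo4 and Esam do, and sham 2 is the lowest array for all 4 genes.

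The remaining secreted and scavenger genes showed overlap. Egfl7 had raw intensities of 1763.1, 1644.0 and 2030.9 on the SSA arrays, against 1706.6, 1221.3 and 2376.9 on the sham arrays, where sham 2 was lowest and sham 3 highest. Its normalised level was 10.76 ± 0.30 in SSA and 10.58 ± 0.22 in sham (SD, n = 3 each), a difference of 0.18 that was 0.04 without SSA 3 and 0.34 without SSA 2. Stab1, a scavenger receptor of sinusoidal endothelium and macrophages, had raw intensities of 869.3, 974.3 and 815.1 on the SSA arrays, against 885.6, 788.9 and 1332.0 on the sham arrays. Only sham 3 stood apart, and the difference in normalised level was -0.08, within the spread of the sham arrays (SD 0.15).

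The receptor kinase Tie1 and the adhesion molecule Pecam1 (CD31) had negative differences, with arrays that overlapped between groups. Tie1, the partner of the angiopoietin receptor Tek, had raw intensities of 328.9, 343.7 and 390.1 on the SSA arrays, against 418.7, 384.2 and 483.6 on the sham arrays, with SSA 3 above sham 2. Its normalised level was 7.93 ± 0.30 in SSA and 8.22 ± 0.13 in sham (SD, n = 3 each), a difference of -0.29, which was -0.17 without SSA 2, -0.46 without SSA 3 and -0.13 with the neqc background. Pecam1 had raw intensities of 252.5, 305.9 and 237.1 on the SSA arrays, against 284.3, 259.0 and 371.1 on the sham arrays. These overlapped, and the normalised level was 7.22 ± 0.17 in SSA and 7.48 ± 0.12 in sham (SD, n = 3 each), a difference of -0.26, or -0.07 with the neqc background. Across the 6 arrays Pecam1 ran against Emcn, with a correlation of -0.89, and still did after removal of group means, with -0.75. Among the members, Robo4 had the highest correlation with Emcn and Pecam1 the lowest. That of Sox18 with Emcn was 0.84, and 0.37 after removal of group means. These points, too, share the normalisation and the difference for which Emcn was chosen.

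Cdh5 and Kdr were at background. Cdh5, which encodes VE-cadherin of endothelial junctions, had raw intensities of 131.9, 136.8 and 130.6 on the SSA arrays, against 126.5, 120.4 and 135.6 on the sham arrays. Kdr, the main VEGF receptor, had 136.4, 141.1 and 138.5 on the SSA arrays, against 135.0, 129.4 and 148.5 on the sham arrays. Neither gene was detected or well above background on any array of either group, and no fold is given.

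Counted together, 5 of the 10 genes had every SSA array above every sham array after normalisation (Emcn, Sox18, Robo4, Esam and Cdh5, the last at background), 5 overlapped and 0 lay wholly below. Robo4 and Esam overlapped with a median shift per array, and Cdh5 with the series matrix values. Robo4 and Cdh5 did not pass the filter. Of the 7 members that passed it, 3 lay wholly above and 0 wholly below. Over all 10821 genes that passed the filter, 8.47% lay wholly above and 6.09% wholly below, so that 14.6% did not overlap. Since the set was chosen on this contrast, nothing is read from the member counts. The median difference of the 10 genes was 0.12 on the log2 scale. It was 0.18 for the 7 that passed the filter, and 0.0085 for all genes tested.

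Further endothelial genes that HSC do not usually express were examined as a check of what the sorted cells held. Of 13 such genes, 10 were detected on no array, with raw signals of 115.0 to 147.4: Stab2, Fabp4, Gpihbp1, Flt4, Clec14a, Mmrn2, Aplnr, Lyve1, Cav1 and Sox17. Nos3, the endothelial nitric oxide synthase, was detected on 2 sham arrays and no SSA array. Plvap, a protein of the openings in fenestrated capillaries, was detected on 2 SSA and 3 sham arrays, at a normalised 5.67 ± 0.72 in SSA and 6.06 ± 0.86 in sham (SD, n = 3 each). Summed over the 13 genes, the signal above background was 380.3 to 680.2 on the SSA arrays and 170.3 to 419.5 on the sham arrays. Cldn5, described below, made up most of this sum on every array except sham 2, so the sum does not describe the 13 genes together. The part of endothelial cells in the differences of Emcn and Sox18 was not tested.

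Cldn5, a tight junction protein of endothelium, was the exception among the 13, detected on all 6 arrays. Its raw intensities were 574.7, 436.2 and 742.2 on the SSA arrays, against 501.8, 186.3 and 312.1 on the sham arrays. The groups overlapped, because sham 1 lay above SSA 2. The normalised difference was 1.43 ± 0.52 (SE), and it did not pass limma's test over all genes, at an adjusted p of 0.563.

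**Figure D3:**
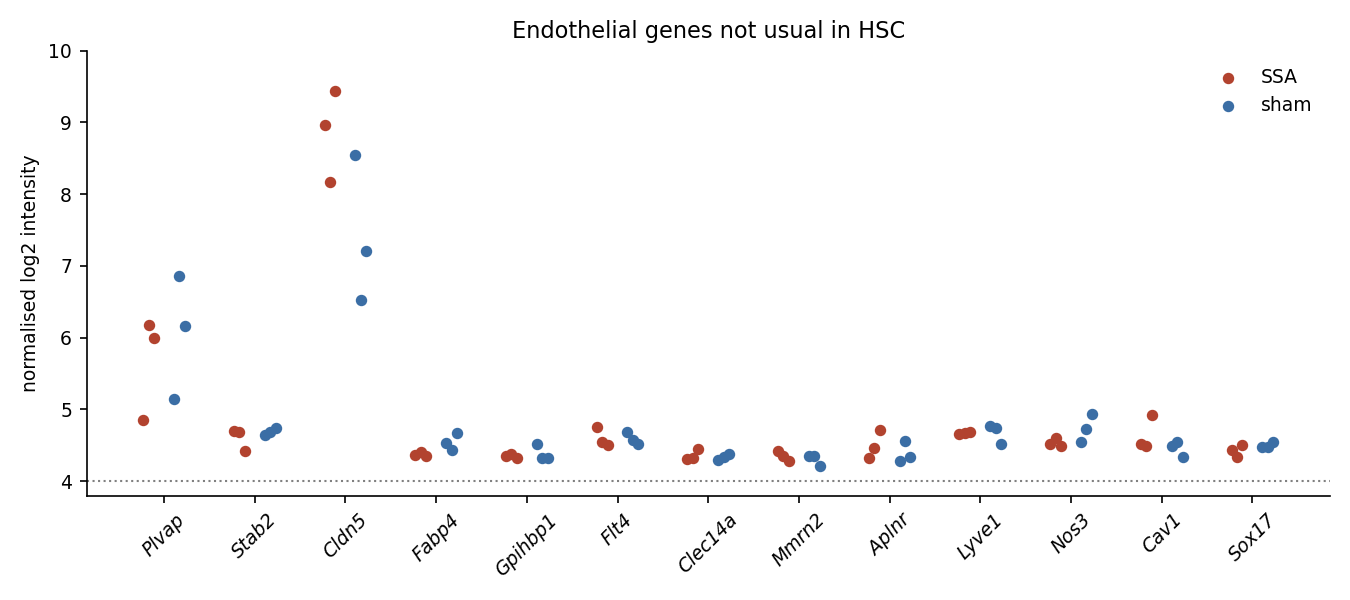
Normalised log2 intensity (vertical axis) of 13 endothelial genes not usual in HSC on the SSA arrays (red, left of each pair) and sham arrays (blue, right); the dotted line is the offset, the lowest value a signal can take. Cldn5 and, on most arrays, Plvap lie above the band near background that holds the other genes.

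The wider vascular programme was read from 8 lists besides the endothelial markers, by limma with Benjamini-Hochberg adjustment over all 10821 genes tested. One gene in all passed, Ear6, an eosinophil ribonuclease gene with near-identical relatives, which was lower after SSA by limma (log2 difference -2.10 ± 0.18 SE, adjusted p 0.0293; 0.00924% of genes tested). With the neqc background it did not pass, and no gene did. Of the 153 other vascular genes listed, 67 were tested and 0 passed, at adjusted p of 0.563 to 0.998. At an unadjusted p under 0.05 there were 8, or 11.9%, against 8.47% of all genes tested. Higher at that p were 7 of the 67, and 512 of all 10821 genes tested (4.73%). Differences were positive for 39 and negative for 28 of the 67, or 58.2% positive against 51.4% of all genes. Their median was 0.057 on the log2 scale.

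Among junction and adhesion genes, 0 of 16 tested passed, 12 had a positive difference and 4 a negative one, and the median was 0.14. Afdn, which ties nectin junctions to actin, stood at 0.84 ± 0.19 (SE) with every SSA array above every sham array. Selp, or P-selectin, which catches leukocytes on vessel walls, stood at 1.52 ± 0.42, and Jam2, a junction molecule of endothelium and HSC, at 0.39 ± 0.19. All 3 had adjusted p of 0.563 to 0.593 in limma.

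HSC surface genes shared with endothelium held 15 tested genes, of which 0 passed, 11 had a positive difference and 4 a negative one, with a median of 0.29. Ramp2, the co-receptor through which adrenomedullin acts on vessels, had normalised levels of 8.60, 8.46 and 8.70 on the SSA arrays, against 8.33, 7.21 and 6.75 on the sham arrays. Its difference was 1.16 ± 0.36 (SE), and sham 1 lay close to the SSA arrays. Ly6a, which encodes Sca-1, stood at 0.89 ± 0.31 with overlapping arrays. Kit, the stem cell factor receptor, was lower on every SSA array, at -0.31 ± 0.14, and none of these 3 passed limma, with adjusted p of 0.563 to 0.590.

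Transcription factors of the endothelial and stem cell programme did not share a direction, with 0 of 13 passing, 6 positive and 7 negative differences and a median of -0.07. Klf2, a factor induced in endothelium by blood flow, stood at -3.50 ± 1.30 (SE), with 5.24, 9.10 and 5.47 on the SSA arrays, against 7.52, 11.75 and 11.03 on the sham arrays. Its groups overlapped, since SSA 2 lay above sham 1. Tal1 and Etv6 stood at -0.39 ± 0.17 and -0.52 ± 0.24, with every SSA array below every sham array, and Lmo2, a partner of Tal1, at 0.23 ± 0.15. Adjusted p in limma was 0.563 for Klf2, 0.590 for Tal1, 0.591 for Etv6 and 0.649 for Lmo2.

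VEGF and Tie signalling genes were centred on 0, with 0 of 7 passing, 4 positive and 3 negative differences and a median of 0.0033. Of the 22 listed, 13 were detected on no array, among them Flt1, Angpt2 and Ptprb, with signals near background. Angpt1 was also detected on none, but its raw signal was 195.2 to 754.3. Its detection score and signal did not go together, as for Robo4. Vegfc, a ligand of lymphatic and venous endothelium, had 7.74, 7.29 and 8.14 on the SSA arrays, against 7.10, 6.90 and 6.97 on the sham arrays, a difference of 0.73 ± 0.22 (SE) with no overlap. Vegfa, the main ligand of Kdr, stood at -0.30 ± 0.16, Tek at -0.10 ± 0.14 and Adgrl4, an adhesion receptor of endothelium, at 0.24 ± 0.21. Adjusted p in limma ran from 0.563 for Vegfc to 0.851 for Tek.

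Sialomucins, the class to which Emcn belongs, gave 0 of 8 passing, 6 positive and 2 negative differences and a median of 0.068. Cd34, a sialomucin of endothelium and progenitors, stood at 0.38 ± 0.23 (SE), Parm1 at -0.30 ± 0.26, Spn (CD43) at -0.12 ± 0.14 and Selplg, the ligand of P-selectin, at 0.079 ± 0.16, with adjusted p in limma of 0.636 to 0.904. The scavenger receptors, the class of Stab1, gave 0 of 4 passing with 2 differences in each direction and a median of 0.14. Scarb2 (0.32 ± 0.17) and Scarf1 (0.29 ± 0.15), a receptor first described in endothelium, had every SSA array above every sham array, while Scarb1 stood at -0.26 ± 0.25 and Cd68 at -0.0050 ± 0.28.

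Of the Slit and Robo guidance genes, the pathway of Robo4, 0 of 4 passed, with 1 positive and 3 negative differences and a median of -0.21. The Slit ligand genes Slit1 and Slit2 were detected on no array, and Slit3 on 1 SSA array and 1 sham array. Robo3 stood at -0.39 ± 0.29 (SE), Arhgap39 at -0.42 ± 0.23, Mylk at 0.34 ± 0.29 and Plxnd1, a semaphorin receptor of endothelium, at -0.037 ± 0.17. Of EGF-like secreted and Notch genes, the list nearest to Egfl7, 0 of 7 passed, with 3 positive and 4 negative differences and a median of -0.053. Dlk1, an imprinted EGF-like protein, had 8.28, 8.25 and 8.45 on the SSA arrays, against 8.06, 6.95 and 7.50 on the sham arrays, a difference of 0.83 ± 0.27, while Emilin2 stood at -0.86 ± 0.46, Egfl8 at -0.30 ± 0.21 and Notch1 at 0.21 ± 0.34.

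**Figure D4:**
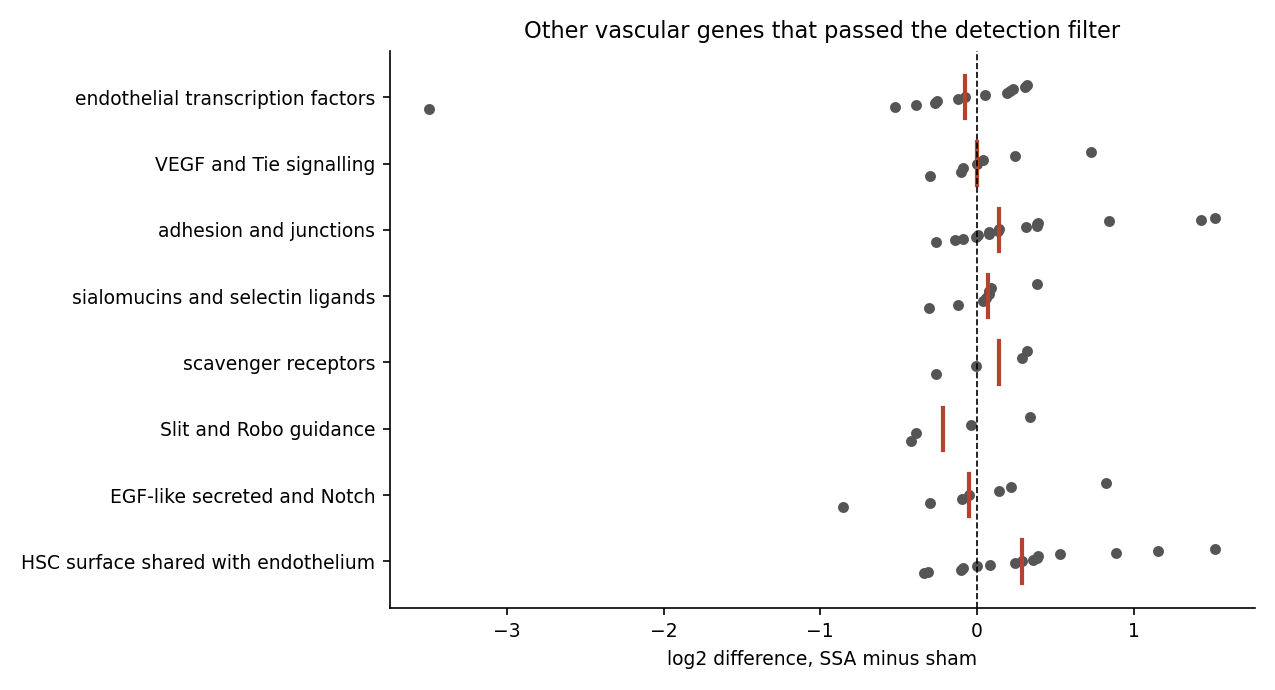
Log2 difference, SSA minus sham (horizontal axis), of each tested gene in 8 vascular lists; a gene in several lists is drawn in each, dots are genes, red bars are list medians, and Klf2 lies far to the left at -3.50. Medians run from -0.21 for Slit and Robo guidance to 0.29 for HSC surface genes shared with endothelium, and no dot passed limma's test over all genes.

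Among the 5 genes with the pattern most like that of Emcn, by Pearson correlation of normalised log2 intensity over the 6 arrays, were Sema3f, Rnf113a2, Palld and Tsacc, each with a correlation of 0.993. Sema3f encodes a secreted semaphorin and Palld an actin-binding protein. Sema3f had 5.68, 5.54 and 5.94 on the SSA arrays, against 5.40, 4.85 and 5.09 on the sham arrays, with sham 2 lowest, as for Emcn. The genes most like Sox18 were Thap11, Polr2h, Coa4, Lcmt1 and Socs2, with correlations of 0.987 to 0.995. Socs2, a suppressor of cytokine signalling, had 8.24, 8.34 and 8.62 on the SSA arrays, against 7.84, 7.42 and 7.08 on the sham arrays. In both Sox18 and Socs2, sham 3 was lowest. With 6 arrays and 10821 genes such values are a description.

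Marker genes of other cell types were read on the same arrays, and none passed limma. Neutrophil genes had a negative difference in 5 of 5 tested and a summed signal above background of 5226.6 to 7315.2 on the SSA arrays and 9243.1 to 13497.2 on the sham arrays. Their brightest members were Mpo (-0.56), S100a8 (-1.46) and S100a9 (-1.29 on the log2 scale). Mean raw signals of these were 5681.0, 2618.9 and 877.1, so Mpo weighed most in the sum. Erythroid genes had a negative difference in 5 of 5 tested, with sums of 2344.4 to 5909.3 in SSA and 5517.0 to 6235.8 in sham, led by Hba-a1 (-0.32), Hbb-b1 (-0.43) and Klf1 (-0.37). Genes of megakaryocytes, which also carry Pecam1 and Esam, had 3 positive and 1 negative differences, with Pf4 at 0.098, Itga2b at -0.60 and Gp9 at 0.045. Macrophage genes summed to 69.9 to 102.6 in SSA and 71.9 to 133.6 in sham. The brightest, Cd68 (-0.0050), was detected on all 6 arrays, and Csf1r (-0.041) on 1 SSA array. The other 4 of 6, Mrc1, Adgre1 and C1qa among them, were detected on no array. T cell genes were detected on no array in 4 of 4, B cell genes in 2 of 3 and stromal genes in 4 of 6. The brightest B cell marker, Cd79b, stood at 0.020 and the brightest stromal marker, Pdgfrb, at -0.87. Their part in the differences of the vascular genes was not tested.

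**Figure D5:**
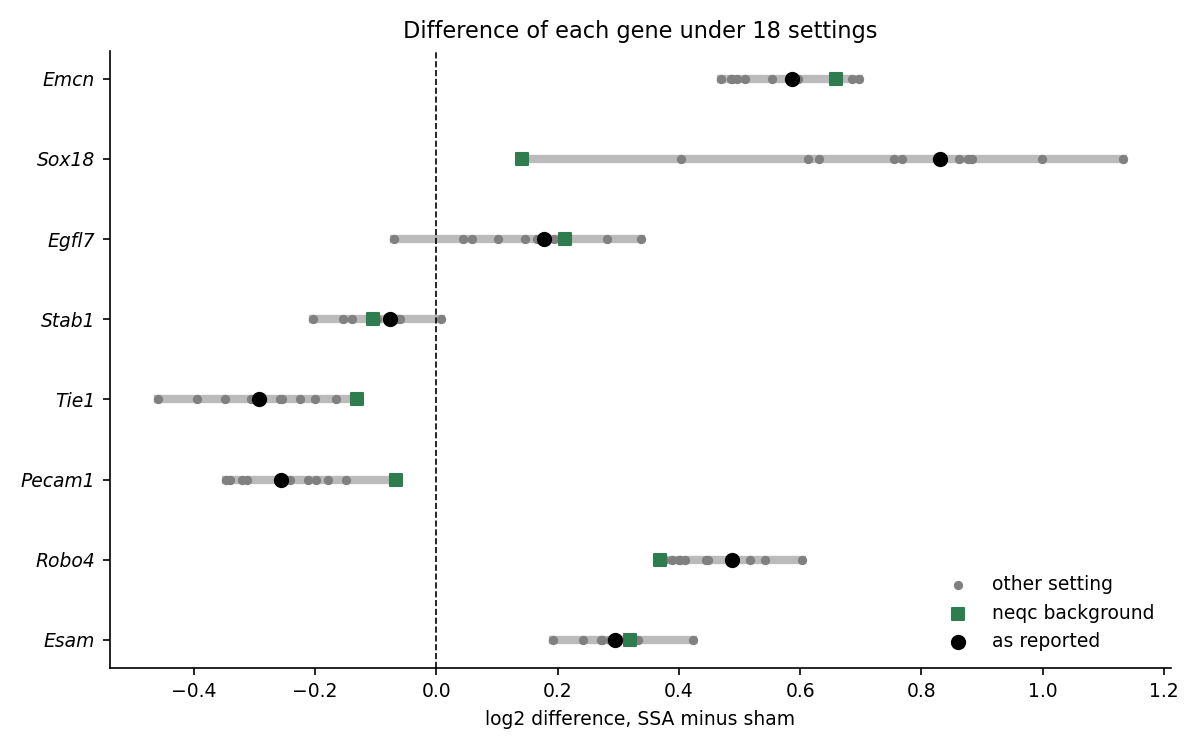
Log2 difference, SSA minus sham (horizontal axis), of the 8 members above background as reported (black), with the neqc background (green square) and under the other alternatives (grey dots; the grey bar spans them). Emcn stays between 0.47 and 0.70, whereas Sox18 runs from 0.14 to 1.13 and Egfl7 and Stab1 cross 0.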

How the data were processed

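The deposited raw table holds linear intensity per gene name and array with no normalisation, from GenomeStudio 1.8.0, per the file headers. It also holds the number of beads behind each value, a whole count deposited by the authors, the SD of the beads, and a detection score, a fraction deposited by the authors that was used as 1 minus a detection p. The deposited series matrix holds intensity equal to the raw signal minus 1 constant per array (126.6 to 138.1), within 0.1. How replicates relate to animals and how rows combine probes is not given in the sources used here. No slide is named, so no batch could be tested, and the header numbers of SSA arrays all precede those of sham arrays.

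The NCBI gene table of GRCm38.p6 gave current symbols, 28888 in all. Background was removed by normexp (limma 3.58.1, R 4.3.3), with each array's background mean and SD taken as the signal at detection scores near 0.5 and 0.84. The means were 126.1 to 137.7 and the SDs 7.90 to 9.30. limma's own neqc, which gave SDs of 194.9 to 302.7 on these gene-level rows, was an alternative. An offset of 16, quantile normalisation and log2 followed. A row was kept where the detection p was under 0.05 on 3 or more arrays, the brightest row stood for its gene, and limma tested SSA against sham (lmFit, then eBayes, group only, two-sided, Benjamini-Hochberg, called at an adjusted p under 0.05). The offset shrinks differences of dim genes: that of Sox18 was 0.83, and 0.63 with an offset of 50. The background correction enlarged the Sox18 difference, which was 0.40 without it. The number of arrays limits the precision.

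The members and the lists were chosen with earlier results of these data known. So was the background setting: an earlier analysis used neqc and added the detection curve after seeing the data, and the curve was made the main setting here, for its smaller SD, with it known that Ear6 passes under it and that dim genes differ by more. Named are the 10 members, all 13 endothelial markers, up to 4 tested genes of smallest p in each other list, the 5 genes most like Emcn and the 5 most like Sox18, excluding clone names, and the 3 brightest markers of each other cell type. Some further genes, such as Sox7, Kit and the Slit genes, were named after their values were seen. A few genes that the rule would name are not reported here. The member differences and the counts of genes called or at an unadjusted p under 0.05 were recomputed under 17 alternatives, with none added later; the other values were not.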

Additional observations from a re-analysis of the deposited data

How the results depend on the processing

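Differences of Emcn, Sox18, Robo4, Esam, Tie1 and Pecam1 kept their sign under all 17 alternatives, and those of Egfl7 and Stab1 under 16, turning with array weights (Egfl7 -0.07) and without sham 3 (Stab1 0.01). The ranges were 0.47 to 0.70 for Emcn, 0.14 to 1.13 for Sox18, 0.37 to 0.60 for Robo4, 0.19 to 0.42 for Esam, -0.46 to -0.13 for Tie1 and -0.35 to -0.07 for Pecam1. In all 11 alternatives that kept 6 arrays, the Emcn and Sox18 groups did not overlap. However, changes of the filter, the mean of rows per gene and a replicate block left the member differences unchanged. Neither these nor array weights changed the values from which overlap was read. Emcn and Sox18 were chosen as higher after SSA, so their counts are a description. Robo4 and Esam overlapped with a median shift per array (0.39 and 0.24), and Cdh5 with the series matrix values. The number of genes called by limma was 1, and 0 with the neqc background, with no background correction and with no filter on dim genes (852, 990 and 2070 genes at an unadjusted p under 0.05), 3 with a median shift per array and 0 to 4 with 1 array left out, the 4 being without sham 1. The cause was not tested. Array weights, in which sham 3 had a weight of 6.61 against 0.32 to 1.69 for the others, called 1461 genes, 18 of them other vascular genes; every other alternative called 0 vascular genes. At an unadjusted p under 0.05 there were 8 other vascular genes, and 6 to 28 over the alternatives, with 28 under array weights and 17 without sham 1. Deviations of same-numbered arrays from their group means had correlations of 0.40, -0.0087 and -0.20, and 2 of 6 arrays correlated best with their own number. With 3 arrays per group, these values cannot decide whether the numbers pair the samples. A replicate block called 4 genes against 1, and 0 other vascular genes. Signal close to background limits Sox18, Cdh5 and Kdr.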
